A study of Mus musculus with 19 samples.

Results

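Dppa2, Dppa3, Dppa4 and Dppa5a are 4 mouse genes named for their association with developmental pluripotency, and they were selected by symbol from the 12778 genes of the deposited expression matrix. Dppa1, Dppa5b and Dppa5c, which carry the same name, had no values analysed here. Transcript 3' ends were counted in 19 QuantSeq libraries of mouse cells grown in medium with LIF and fetal bovine serum. Embryonic fibroblasts had been reprogrammed with the factors Oct4, Klf4 and Sox2 into induced pluripotent stem cells (iPSC), which were collected after more than 18 passages. They were wild type (WT, 3 libraries), or lacked the miR-290 cluster of microRNAs, the miR-302 cluster, or both (knockout, KO, and double KO), with 2 colonies per knockout and 2 libraries per colony. Embryonic stem cells (ESC) with the miR-290 KO and with the miR-302 KO gave 2 libraries each, and WT ESC were not analysed here. Each colony was derived independently, but the WT iPSC are excepted from that statement in the series' design, so the spread among their libraries may be that of a single derivation. No label gives the cell line, strain or sex of the donor cells.

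The 4 genes share a name and a place of expression, not a single protein family. Dppa2 and Dppa4 encode related SAP-domain proteins that bind DNA as a pair, and in mouse ESC they are known for priming developmental promoters and for activating genes of the 2-cell stage. Dppa3, also called Stella or PGC7, is a small maternal protein that guards the egg genome against loss of DNA methylation and restrains Uhrf1, the partner of the maintenance methyltransferase. Dppa5a, also called Esg1, is a small KH-domain protein, a fold that binds RNA, and its transcript is among the most abundant in mouse ESC. Both clusters belong to the main microRNA genes of pluripotent mouse cells, and their microRNAs lower messenger RNAs that pair with the seed, bases 2 to 8 of the mature strand.

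These are mature microRNAs of the deleted clusters that share the seed AAGUGCU, from RefSeq on GRCm38.p6, with the seed in capitals. They lie in the miR-302 cluster on chromosome 3 and in the miR-290 cluster on chromosome 7, all on the plus strand, and are shown because both deletions remove copies of the same seed.
miR-302b-3p, chr3:127545275-127545297: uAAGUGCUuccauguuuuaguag
miR-302d-3p, chr3:127545665-127545687: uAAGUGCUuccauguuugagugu
miR-291a-3p, chr7:3218968-3218989: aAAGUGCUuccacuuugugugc
miR-294-3p, chr7:3220691-3220712: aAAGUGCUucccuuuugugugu
miR-295-3p, chr7:3220815-3220837: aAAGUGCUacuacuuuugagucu
In the 3' untranslated regions of the 4 Dppa genes (GENCODE M21, GRCm38: 1012 bases for Dppa2, 267 for Dppa3, 505 for Dppa4 and 184 for Dppa5a), the 6 letters that pair with bases 2 to 7 of this seed (GCACTT) and the 7 that pair with bases 2 to 8 (AGCACTT) were each found 0 times on the transcribed strand. Over the 11767 genes of the matrix with such a region, of median length 1006 bases, 31.3% held the first and 16.3% the second. A single annotated transcript was searched per gene, and other transcripts were not. The 7-letter matches are among the 6-letter ones, and the search says only that these letters were not in these annotated regions.

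Dppa2 (ENSMUSG00000072419.5) lies on chromosome 16 at 48303908 to 48319723 and Dppa4 (ENSMUSG00000058550.15) at 48283733 to 48294237, both on the plus strand, with start sites 20175 bases apart. Dppa3 (ENSMUSG00000046323.8) lies on chromosome 6 at 122626410 to 122630272 on the plus strand, and Dppa5a (ENSMUSG00000060461.5) on chromosome 9 at 78367052 to 78368177 on the minus strand. All positions are GENCODE M21 on GRCm38, which is the mm10 build that the submitters' processing notes name.

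The deposited log2 values contain a few reads of prior and a constant that differs from gene to gene. Reads were recovered from them, and levels are given as CPM, a gene's reads over the library's recovered total on the usual CPM scale, with the mean and SD over colonies for knockout iPSC and over libraries for the other groups. In this 3' method a transcript gives reads at its end whatever its length, so CPM of different genes are set side by side without a length correction. A library held 6435997 to 24974510 recovered reads (median 17459410). Reads of Dppa2, Dppa3 and Dppa4 were recovered as whole numbers. For Dppa5a no constant gave whole reads in more than 7 libraries, so its CPM are estimates that rest on the authors' deposited mean count, while its differences between libraries do not depend on that constant. The second library of colony 1 in miR-302 KO iPSC stood apart, with 17.1% of its reads in its 20 most abundant genes, against 8.62% to 13.5% in the other 18 libraries.

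The cells labelled double KO iPSC held less of most markers that define pluripotent cells. The 8 markers listed for pluripotent cells (Pou5f1, Sox2, Nanog, Esrrb, Zfp42, Utf1, Fgf4 and Klf4) summed to 199 to 303 CPM in the 4 double KO libraries and to 2248 to 4096 CPM in the other 15. Most of the double KO sum was Fgf4, at 177 ± 49.9 CPM (SD, n = 2) against 276 ± 30.5 CPM in WT (SD, n = 3). Fgf4 had the smallest fall among the 8 but was called lower too. Its log2 difference from WT was -0.63 (SE 0.23, adjusted p = 0.0391; limma, Benjamini-Hochberg). Markers of embryonic fibroblasts, of which 3 of 10 were in the matrix (Col1a1, Thy1 and Pdgfrb), summed to 0.281 to 0.976 CPM in the double KO and to between 2.28 and 14.0 CPM elsewhere. Of 7 extraembryonic endoderm markers 2 were measured (Gata4 and Dab2), with sums of 0.225 to 2.58 CPM in the double KO, where Gata4 had 0 reads, and of 0.993 to 11.8 CPM elsewhere. Of 7 trophoblast markers 6 were measured, with sums of 12.7 to 64.8 CPM in the double KO and 59.9 to 196 CPM elsewhere. Among them 3 were called lower than in WT iPSC: Krt7, Tfap2c and Gata3, with log2 differences of -5.01, -3.55 and -1.50. Hand1 (-1.06), Cdx2 and Eomes were not called. Cdx2 ran from 0.279 to 21.9 CPM over the double KO libraries, against at most 6.61 CPM in any other library. Its double KO colonies lay far apart, with a mean of 10.9 ± 14.7 CPM (SD, n = 2). The mean of Eomes was 12.3 CPM in double KO iPSC and 12.2 CPM in WT iPSC. The part of a changed cell population in the results on the Dppa genes was not tested. In such bulk libraries, fewer cells of a type and less RNA per cell cannot be told apart.

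The first comparison asked how the 4 genes differed between double KO and WT iPSC. Each of them was nearly absent from the double KO: the WT mean was 1020 times the double KO mean for Dppa2, 550 times for Dppa3, 227 times for Dppa4 and 1259 times for Dppa5a. All 4 genes were lower in limma's test, against a background of 49% of all genes called in this comparison and 21.5% called lower. In all 4 genes the 4 double KO libraries lay below each of the other 15 libraries, a pattern found in 12.2% of all genes. These changes sat beside a median of 0.16 over all genes on the log2 scale, which median-of-ratios scaling moved to -0.05.

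**Figure D1:**
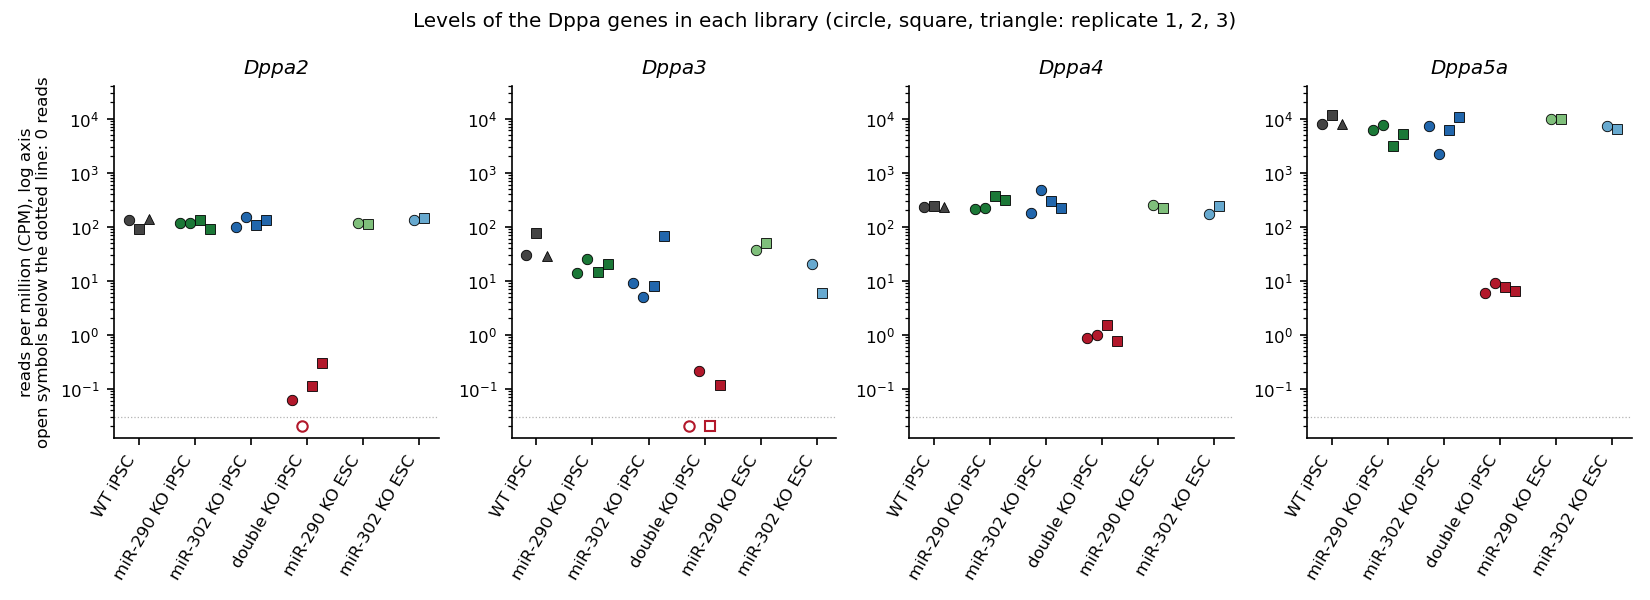
Reads as CPM (log axis) of Dppa2, Dppa3, Dppa4 and Dppa5a in each of the 19 libraries, grouped by genotype and cell type; symbols mark the replicate (colony, or library for WT iPSC and ESC) and open symbols below the dotted line mark 0 reads. The 4 double KO libraries lie below all others in every panel; for Dppa3 and Dppa5a the other groups spread more widely than for Dppa2.

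Dppa2, a DNA-binding partner of Dppa4, had 130.5, 91.3 and 136 CPM in the 3 WT libraries. The double KO had 0.0621 and 0 CPM in colony 1 and 0.113 and 0.294 CPM in colony 2, which is 1, 0, 2 and 5 reads. With 0 reads, the second library of colony 1 allows up to 0.209 CPM at 3 reads. The means were 119 ± 24.5 CPM in WT (SD, n = 3) and 0.117 ± 0.122 CPM in the double KO (SD, n = 2). Over summed reads, 6089 against 8, the ratio of WT to double KO was 962, with an exact 95% interval of 488 to 2229 that covers counting error only, since PCR reads are not independent molecules. Dppa2 fell by 8.93 on the log2 scale (SE 0.27, adjusted p = 1.38e-10; limma, Benjamini-Hochberg), where the prior limits the size of the change.

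Dppa4, the other gene of the pair, was higher than Dppa2 in each of the 15 libraries outside the double KO. WT iPSC had 226, 241 and 234 CPM. The double KO had 0.870 and 0.976 CPM in colony 1 and 1.52 and 0.763 CPM in colony 2, from 14, 14, 27 and 13 reads. Dppa4 therefore stayed above the floor of 3 reads in every double KO library, unlike Dppa2 and Dppa3. It fell by 7.64 on the log2 scale (SE 0.22, adjusted p = 1.06e-10; limma, Benjamini-Hochberg), from 234 ± 7.79 CPM in WT (SD, n = 3) to 1.03 ± 0.155 CPM (SD, n = 2).

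Dppa3, the maternal guard of DNA methylation, was the lowest of the 4 genes in every group mean. The WT libraries had 29.2, 77.4 and 28.1 CPM, from 537, 1449 and 408 reads, so that the second stood at more than 2 times the others. Colony 1 of the double KO had 0 and 0.209 CPM and colony 2 had 0 and 0.117 CPM, which is 5 reads in all. The libraries with 0 reads allow up to 0.186 and 0.169 CPM at 3 reads. From 44.9 ± 28.1 CPM in WT (SD, n = 3) to 0.0816 ± 0.0324 CPM in the double KO (SD, n = 2), Dppa3 fell by 7.58 on the log2 scale (SE 0.60, adjusted p = 7.44e-07; limma, Benjamini-Hochberg). The ratio of summed reads was 605, with an exact 95% counting interval of 259 to 1865.

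Dppa5a, the KH-domain gene, was by far the most abundant of the 4. It took an estimated 8062, 11450 and 7758 CPM in WT iPSC, and ranked between 2 and 4 among all genes with recovered reads in those libraries. In the double KO it had an estimated 5.89 and 8.90 CPM in colony 1 and 7.63 and 6.45 CPM in colony 2, and ranked between 8593 and 9078. Dppa5a fell by 10.22 on the log2 scale (SE 0.30, adjusted p = 1.38e-10; limma, Benjamini-Hochberg), from 9089 ± 2047 CPM (SD, n = 3) to 7.22 ± 0.252 CPM (SD, n = 2). With an estimated 468 reads summed over the double KO, it was the member with the highest remaining level there.

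The authors' deposited table for double KO against WT iPSC lists all 4 genes as well. Its log2 fold changes are -10.18 for Dppa2, -9.43 for Dppa3, -8.07 for Dppa4 and -10.57 for Dppa5a. These come from another model without the prior of the matrix, and the gap between them and the values above was wider for Dppa2 and Dppa3, which had 8 and 5 reads in the double KO, than for Dppa4 and Dppa5a.

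The single knockouts were compared with WT iPSC to ask what the loss of 1 cluster changed. Levels of Dppa2 and Dppa4 stayed close to WT in both, while Dppa3 and Dppa5a had lower means in both, without passing the test. limma called 0 of the 4 genes in either comparison, against 1.57% of all genes called in miR-290 KO and 0.0313% in miR-302 KO. At an unadjusted p under 0.05 there was 1 of the 4 genes in each, Dppa5a in miR-290 KO and Dppa3 in miR-302 KO, beside 16.7% and 15.1% of all genes. The 1.57% rested on colony 2 of the miR-290 KO iPSC, without which 0.0157% of genes were called, and still 0 of the 4.

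In miR-290 KO iPSC, Dppa2 had 116 and 114 CPM in colony 1 and 130 and 91.8 CPM in colony 2. The mean was 113 ± 2.997 CPM (SD, n = 2), within the range of the WT libraries. The log2 difference from WT was -0.06, with a 95% interval of -0.64 to 0.51. Dppa4 had 213 and 223 CPM in colony 1 and 361 and 313 CPM in colony 2, so that colony 1 was close to WT and colony 2 above every WT library. Its log2 difference was 0.22 (95% interval -0.25 to 0.69).

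Dppa3 had 13.9 and 25.6 CPM in colony 1 of the miR-290 KO iPSC and 14.3 and 20.2 CPM in colony 2. All 4 libraries lay below the 3 WT libraries, and the same held for Dppa5a, which had an estimated 6059 and 7742 CPM in colony 1 and 3120 and 5139 CPM in colony 2. That pattern was found in 6.26% of all genes. The log2 differences from WT were -1.14 for Dppa3 (SE 0.60, 95% interval -2.44 to 0.15, adjusted p = 0.365; limma, Benjamini-Hochberg) and -0.76 for Dppa5a (SE 0.30, 95% interval -1.42 to -0.11, adjusted p = 0.231). Without WT library 2, which had the highest level of both genes in WT, the differences were -0.67 and -0.59. Without colony 2 of the miR-290 KO iPSC, that of Dppa5a was -0.38, and without colony 1 it was -1.15. The authors' deposited table for this comparison lists Dppa3, with a log2 fold change of -1.44 (adjusted p = 0.00344), and Dppa5a, with -0.88 (adjusted p = 0.0214), and neither Dppa2 nor Dppa4; only adjusted p-values up to 0.05 are in that table.

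In miR-302 KO iPSC, the 2 libraries of colony 1 differed by a median of 1.00 on the log2 scale over all genes, against 0.44 in colony 2 and 0.31 and 0.44 in the miR-290 KO colonies. Dppa2 had 97.5 and 148 CPM in colony 1 and 108 and 131 CPM in colony 2, a log2 difference from WT of 0.03 (95% interval -0.55 to 0.61). Dppa4 had 178 and 480.5 CPM in colony 1 and 301 and 224 CPM in colony 2, a log2 difference of 0.24 (95% interval -0.22 to 0.71). The value of 480.5 CPM, the highest of Dppa4 in any library, came from the library with 17.1% of reads in 20 genes. With colony 1 taken from its first library alone, the differences were -0.12 for Dppa2 and -0.11 for Dppa4.

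Dppa3 had 9.16 and 4.97 CPM in colony 1 of the miR-302 KO iPSC and 7.79 and 66.8 CPM in colony 2. Thus 3 of the 4 libraries lay below all WT libraries and the last lay above 2 of the 3. None of the 4 genes had all 4 miR-302 KO iPSC libraries below WT, a pattern found in 4.8% of all genes. Between the libraries of colony 2 the difference was 8.44-fold, a log2 difference of 3.08 that 2.25% of all genes equalled or exceeded in that colony. Dppa5a had an estimated 7230 and 2242 CPM in colony 1, where the lower value is from the library that stood apart, and 6127 and 10690 CPM in colony 2. In colony 2 the library that was high in Dppa3 was thus also the higher one in Dppa5a.

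The log2 differences between miR-302 KO and WT iPSC were -1.66 for Dppa3 (SE 0.60, 95% interval -2.96 to -0.37, adjusted p = 0.273; limma, Benjamini-Hochberg) and -0.64 for Dppa5a (SE 0.30, 95% interval -1.30 to 0.02, adjusted p = 0.340). Without colony 2 the differences were -2.53 for Dppa3 and -1.14 for Dppa5a. That setting leaves colony 1 alone in the group, and its mean takes in the library that stood apart. Without colony 1 the differences were -0.79 and -0.14. With colony 1 taken from its first library alone they were -1.45 and -0.22. The authors' deposited table for miR-302 KO against WT iPSC, which holds 43 genes, lists none of the 4.

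**Figure D2:**
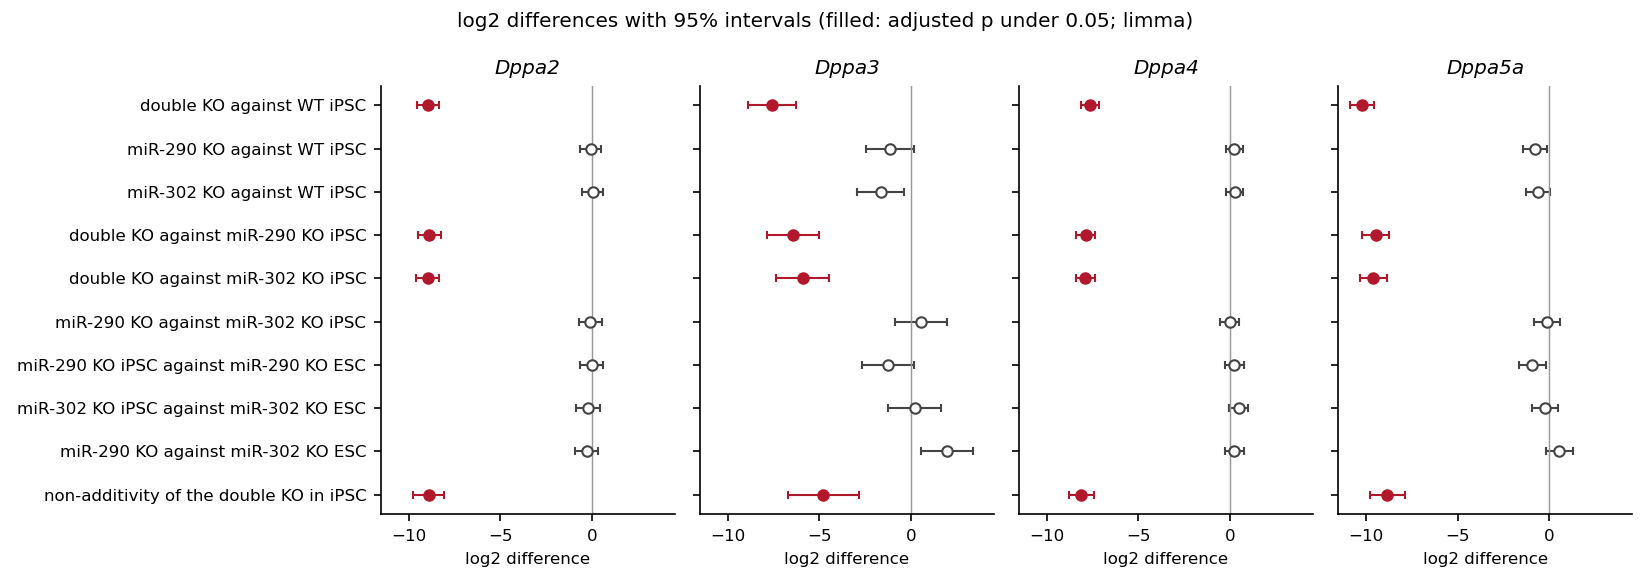
log2 differences of the 4 Dppa genes with 95% intervals (bars) in the 10 comparisons, from 1 limma fit over 13 samples; filled points passed an adjusted p of 0.05. In each panel the comparisons of the double KO and the non-additivity lie between -10.22 and -4.78. The other differences lie between -1.66 and 1.95, with the widest intervals for Dppa3, and none passed. Among them the interval of Dppa3 excludes 0 in miR-302 KO against WT iPSC and between ESC. That of Dppa5a excludes 0 in miR-290 KO iPSC against WT iPSC and against ESC.

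The double KO was also set against each single KO, to ask whether the loss of the second cluster changed the genes further. All 4 were lower in the double KO than in miR-290 KO iPSC, where 16.8% of all genes were called lower, and than in miR-302 KO iPSC, where 18.4% were. Against miR-290 KO the log2 differences were -8.87 for Dppa2, -6.44 for Dppa3, -7.86 for Dppa4 and -9.46 for Dppa5a. Against miR-302 KO they were -8.96, -5.92, -7.89 and -9.58 in the same order. The highest of these adjusted p-values was that of Dppa3 against miR-302 KO, 1.79e-05 (limma, Benjamini-Hochberg). These comparisons and that with WT share the double KO colonies.

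Non-additivity, meaning how far the log2 change in the double KO lay from both single KO changes added together, was then tested in the same fit. It was negative in all 4 genes, against 23.6% of all genes called and 11.7% called with a negative value. The values were -8.90 for Dppa2 (SE 0.39), -4.78 for Dppa3 (SE 0.89), -8.11 for Dppa4 (SE 0.32) and -8.82 for Dppa5a (SE 0.45), with adjusted p-values between 1.16e-08 and 0.00248 (limma, Benjamini-Hochberg). For Dppa2 and Dppa4 the non-additivity was close to the whole change against WT, since their single KO changes lay between -0.06 and 0.24. For Dppa3 it was 2.80 short of it, the sum of its 2 single KO differences. The prior limits how low Dppa2 and Dppa3 can go in the double KO, so for them its size depends on the prior.

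The miR-290 KO and miR-302 KO iPSC were not distinguished by these genes. The log2 differences, miR-290 KO minus miR-302 KO, were -0.09 for Dppa2 (95% interval -0.72 to 0.54), 0.52 for Dppa3 (-0.90 to 1.94), -0.02 for Dppa4 (-0.54 to 0.49) and -0.12 for Dppa5a (-0.84 to 0.60). limma called 0 of the 4, beside 2.25% of all genes. At an unadjusted p under 0.05 there were also 0 of the 4, beside 18.5% of all genes. The intervals leave room for a difference of about the size of the uncalled changes against WT in Dppa3, and of less than 1 on the log2 scale in the other 3 genes.

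ESC of the same genotypes served to compare cells that were reprogrammed with cells that were not. Dppa2 had 118 and 111 CPM in miR-290 KO ESC and 134 and 144 CPM in miR-302 KO ESC. Dppa4 had 251 and 218 CPM and then 170 and 237 CPM. Both genes were thus at the level of the iPSC outside the double KO. Dppa3 had 37.0 and 50.0 CPM in miR-290 KO ESC, inside the range of WT iPSC, and 19.8 and 5.99 CPM in miR-302 KO ESC. Dppa5a had an estimated 9929 and 9936 CPM in miR-290 KO ESC and 7123 and 6393 CPM in miR-302 KO ESC.

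Between iPSC and ESC of the same genotype, limma called 0% of all genes, and 0 of the 4 Dppa genes, for either knockout. Leaving out iPSC colony 2 changed the miR-302 KO share, but that fit had colony 1 alone in the group, including the library that stood apart. With colony 1 taken from its first library alone, and colony 2 kept, 0 genes were called. At an unadjusted p under 0.05 there were 492 genes for miR-290 KO, among them Dppa5a, and 1343 for miR-302 KO, with 0 of the 4. In miR-290 KO the 4 iPSC libraries lay below both ESC libraries for Dppa3 and Dppa5a, a pattern of 7.69% of all genes. The log2 differences, iPSC minus ESC, were -1.25 for Dppa3 (95% interval -2.67 to 0.17) and -0.92 for Dppa5a (-1.64 to -0.20). In miR-302 KO they were 0.18 (-1.24 to 1.60) and -0.25 (-0.97 to 0.47). Those of Dppa2 and Dppa4 lay between -0.22 and 0.45 in both genotypes.

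Between the 2 ESC genotypes, 0.587% of all genes and 0 of the 4 Dppa genes were called by limma. At an unadjusted p under 0.05 there was Dppa3, beside 12.8% of all genes. Dppa3 was higher in miR-290 KO ESC by 1.95 on the log2 scale (SE 0.66, 95% interval 0.53 to 3.37, adjusted p = 0.229; limma, Benjamini-Hochberg). Both miR-302 KO ESC libraries lay below both miR-290 KO ESC libraries for Dppa3 and Dppa5a, as in 27.8% of all genes. Leaving out the second miR-302 KO ESC library, the one with 5.99 CPM, brought the difference in Dppa3 to 1.11, and leaving out the first brought it to 2.80.

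Ordered by mean level, the 5 groups outside the double KO differed little for Dppa2, from 113 CPM in miR-290 KO iPSC to 139 CPM in miR-302 KO ESC, with overlapping library ranges for each pair of neighbours in that order. Dppa4 ran from 203.5 CPM in miR-302 KO ESC to 296 CPM in miR-302 KO iPSC, also with overlapping neighbours. Dppa3 ran from 12.9 CPM in miR-302 KO ESC through 18.5 in miR-290 KO iPSC, 22.2 in miR-302 KO iPSC and 43.5 in miR-290 KO ESC to 44.9 in WT iPSC, and neighbours again overlapped. For Dppa5a the order was 5515 CPM in miR-290 KO iPSC, 6572 in miR-302 KO iPSC, 6758 in miR-302 KO ESC, 9089 in WT iPSC and 9932 in miR-290 KO ESC. Only the step from miR-302 KO ESC (at most 7123 CPM) to WT iPSC (at least 7758 CPM) had no overlap there, and that pair was not tested.

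Outside the double KO Dppa2 varied least of the 4 genes and Dppa3 most. Over these 15 libraries the SD of the deposited log2 value was 0.23 for Dppa2 and 0.39 for Dppa4, against a median of 0.56 over all genes, and 95.2% and 72.2% of genes had an SD at least as large. The SD was 1.20 for Dppa3, equalled or exceeded by 13.1% of genes, and 0.64 for Dppa5a, close to the median of all genes and equalled or exceeded by 42.6%. Dppa4 gave 1.27 to 3.41 reads per read of Dppa2 in these libraries, with the extremes in an miR-302 KO ESC library and in a miR-290 KO iPSC library. The 2 neighbouring genes therefore did not keep a fixed ratio.

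Across the 11 samples outside the double KO, Dppa3 and Dppa5a had a Pearson r of 0.79 and a Spearman rho of 0.93 on the deposited scale, and an r of 0.87 without the 2 samples farthest from the median of Dppa3. Dppa4 and Dppa5a had an r of -0.55, and Dppa2 and Dppa4 of -0.29. Dppa2 and Dppa3 had an r of -0.62 that was -0.03 without the 2 farthest samples. These are descriptions over samples that share genotypes and sequencing totals. With the double KO included every pair had an r of 0.92 or more; those values span the gap between that group and the rest.

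**Figure D3:**
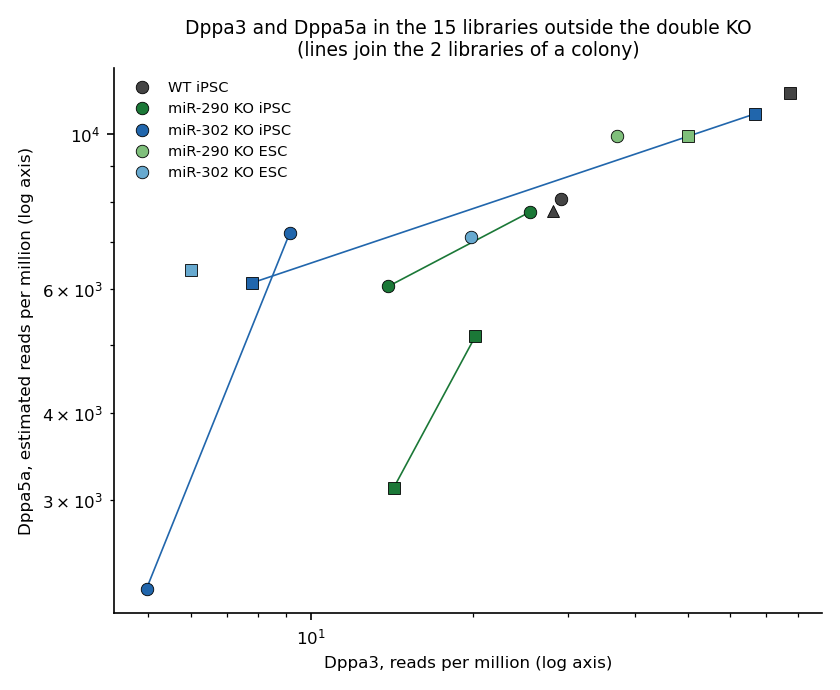
Dppa3 (x axis) against Dppa5a (y axis), both in CPM on log axes, in the 15 libraries outside the double KO; colours mark groups, symbols replicates, and lines join the 2 libraries of a colony. In each of the 4 colonies the library with more Dppa3 also had more Dppa5a.

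Over all 13 samples, the 5 genes with the highest Pearson r with each Dppa gene were also lower in the double KO, as this measure of likeness follows the gap of the double KO from the rest. For Dppa2 they were Smtnl2 (r = 0.998), Sgk1, Rex2, 2610305D13Rik and Esrrb. For Dppa4 they were 2610305D13Rik (r = 0.998), Lefty2, Utf1, Zfp936 and Cnp. For Dppa5a they were Gm13247 (r = 0.995), Rbmxl2, Trap1a, Pecam1 and Tex14. For Dppa3 they included Cpsf4l (r = 0.983), Gstm3, Slc7a6os and Vash2. 2610305D13Rik stood in the lists of both Dppa2 and Dppa4. Esrrb, a nuclear receptor of naive pluripotency, had a log2 difference of -8.94, and Utf1, a chromatin factor of ESC, of -8.75, beside -8.93 for Dppa2 and -7.64 for Dppa4.

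The genes next to the Dppa genes did not all move with them. Within 250 kb of a Dppa start site lie 27 other protein-coding genes, of which 16 were in the matrix. In double KO against WT iPSC 7 of these were lower, 5 higher and 4 not called, against 21.5% and 27.4% of all genes called lower and higher. Beside Dppa2 and Dppa4, Morc1, a germline repressor of transposons, fell by 8.06 on the log2 scale, from 94.3 to 0.445 CPM.

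Around Dppa3 the directions were mixed. Nanog, a core pluripotency factor that starts 81.1 kb away, fell by 8.10, from 689 ± 33.8 CPM in WT (SD, n = 3) to 2.34 ± 0.426 CPM (SD, n = 2), and Rimklb by 5.11. Between Dppa3 and Rimklb, Gdf3, a TGF-beta family ligand of early embryos, was higher by 1.74 (adjusted p = 2.95e-05; limma, Benjamini-Hochberg), with 141 CPM in WT and 459 CPM in the double KO. Its neighbour Apobec1, an RNA-editing deaminase, was higher by 3.84, Mfap5 by 2.89 and Foxj2 by 2.54. Slc2a3, a glucose transporter, and Necap1 were not called, with differences of -0.36 and 0.02.

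Around Dppa5a both measured genes starting within 30 kb fell with it. Ooep, a KH-domain gene of the egg that starts 10.5 kb away, fell by 7.73 on the log2 scale, from 232 CPM in WT to 0.960 CPM, and Ddx43, a germline helicase, by 5.12. Gsta4 and Mto1, farther off, fell by 1.03 and 1.05. Cd109, a surface protein 247 kb away, was higher by 7.19, from 2.32 to 345 CPM. Eef1a1 and Slc17a5 were not called.

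**Figure D4:**
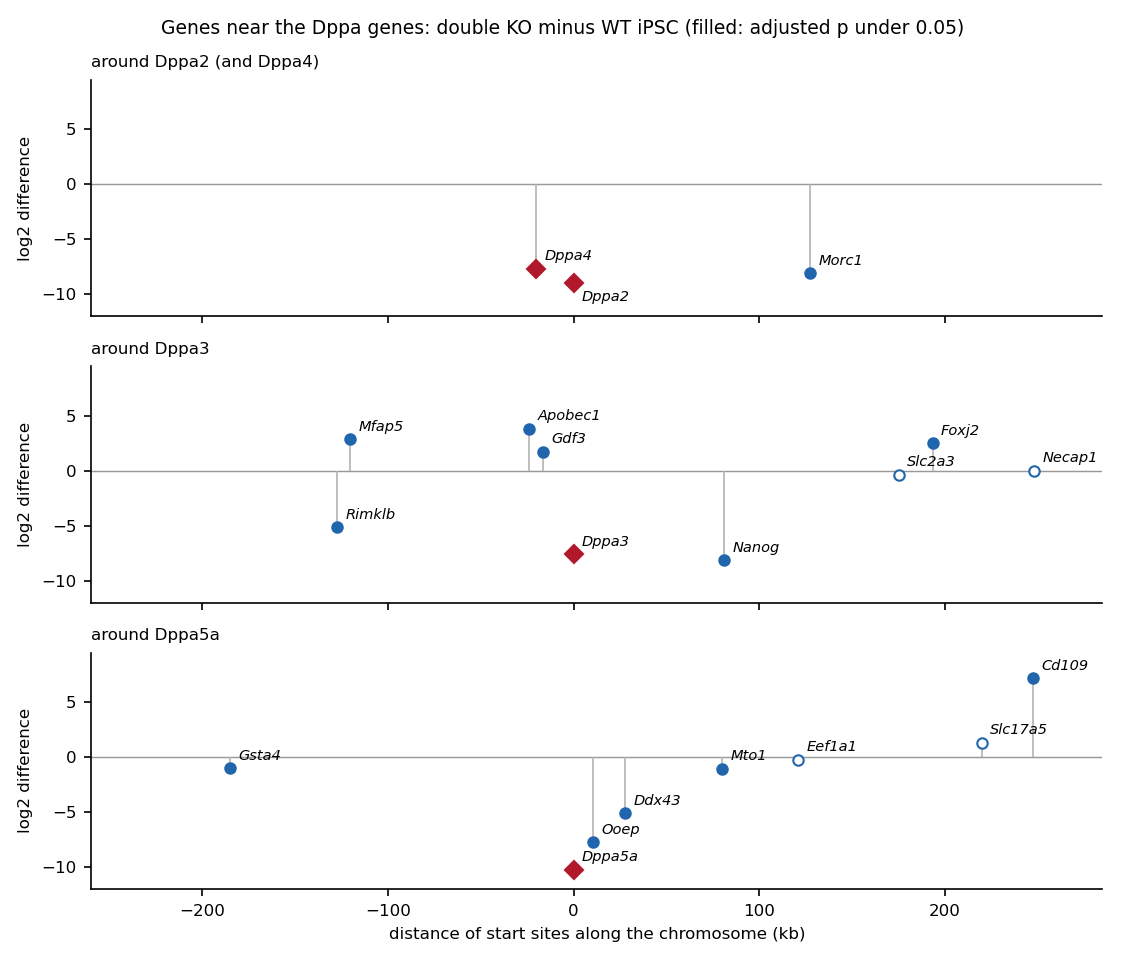
log2 difference, double KO minus WT iPSC, of the measured genes whose start site lies within 250 kb of Dppa2, Dppa3 or Dppa5a, against the distance in kb between start sites; diamonds are Dppa genes and open circles did not pass an adjusted p of 0.05. Genes on both sides of 0 lie near Dppa3, while the nearest genes of Dppa5a and the 3 genes of the Dppa2 region lie below 0.

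Gene lists tied to the roles of the 4 genes were counted in double KO against WT iPSC, beside the median of 0.16 over all genes. Of all genes 49% were called there, 21.5% lower and 27.4% higher, and the counts of this and the next lists stand beside these shares. Of 22 2-cell-stage genes known to be activated downstream of Dppa2 and Dppa4, 6 were in the matrix, and 5 of these fell. Their median log2 difference was -3.74, with -5.81 for Zscan4c, -5.13 for Zscan4a, -3.95 for Tcstv1 and -3.19 for Usp17la. Usp17la had only 1.91 ± 1.18 CPM in WT iPSC (SD, n = 3). Zscan4d, named because it alone was not called, had -3.54 (adjusted p = 0.0513; limma, Benjamini-Hochberg). These are copies of multigene families, so reads could be shared between them. Reads were recovered for only 2 of the 6, Usp17la and Trim43b.

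Germline genes with methylation-sensitive promoters all fell: 13 of the 13 measured of 17 listed, with a median of -5.64, or -6.11 with 5 genes that had 0 double KO reads set at 3 reads over the group. Rpl10l, a testis ribosomal protein gene, fell by 8.32, Tex19.1 by 8.15 and Hormad1, a meiotic chromosome protein gene, by 6.11. Dazl, a germ-cell RNA-binding protein gene, had 20.6 CPM in WT and 0 reads in the double KO, at least 448-fold lower.

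The list of DNA methylation enzymes and their partners, chosen around Dppa3, was divided. Of 12 genes 7 fell, 1 rose and 4 were not called, with a median of -0.77. Dnmt3l, a cofactor of new methylation, fell by 8.52, from 250 ± 20.1 CPM in WT (SD, n = 3) to 0.606 ± 0.391 CPM in the double KO (SD, n = 2), Dnmt3b fell by 3.58 and Tet1, a 5-methylcytosine oxidase, fell by 2.93. Tet3 rose by 4.02, from 2.01 ± 0.597 CPM in WT (SD, n = 3) to 33.2 ± 1.49 CPM (SD, n = 2). Uhrf1, the protein that Dppa3 restrains, fell by 0.75 (adjusted p = 0.0454; limma, Benjamini-Hochberg), and Dnmt1 had -0.08 without being called. The other genes not called were Dnmt3a, Tet2 and Zfp57. Uhrf1 and the genes not called were named after their values were seen.

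Of 9 primordial germ cell factors, the setting in which Dppa3 was first described, 6 fell, 1 rose and 2 were not called, with a median of -1.92. Alpl, the alkaline phosphatase of pluripotent and germ cells, fell by 6.43, Prdm14 fell by 6.29, Prdm1 fell by 5.23 and Tfap2c fell by 3.55. Ifitm3 rose by 0.86, and Dnd1 and Ifitm1 had -0.39 and -0.23 without being called. Of 8 KH-domain relatives of Dppa5a and members of the maternal complex of the egg, 4 were measured and all 4 fell, with a median of -4.09: Ooep by 7.73, Khdc3 by 5.05 and Tle6 by 3.13. Padi6 had 0 double KO reads and was at least 22.2-fold lower, set at 3 reads over the group.

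Pluripotency factors fell in 13 of 14 cases, with a median of -5.91, a shift that has the same direction as those of the Dppa genes (-7.58 to -10.22). The largest changes were in Esrrb, Utf1, Nanog and Zfp42, and Zfp42 fell by 7.24. Nr0b1, an ESC nuclear receptor, was the gene not called, with 60.5 ± 33.8 CPM in WT and 58.0 ± 2.82 CPM in the double KO.

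**Figure D5:**
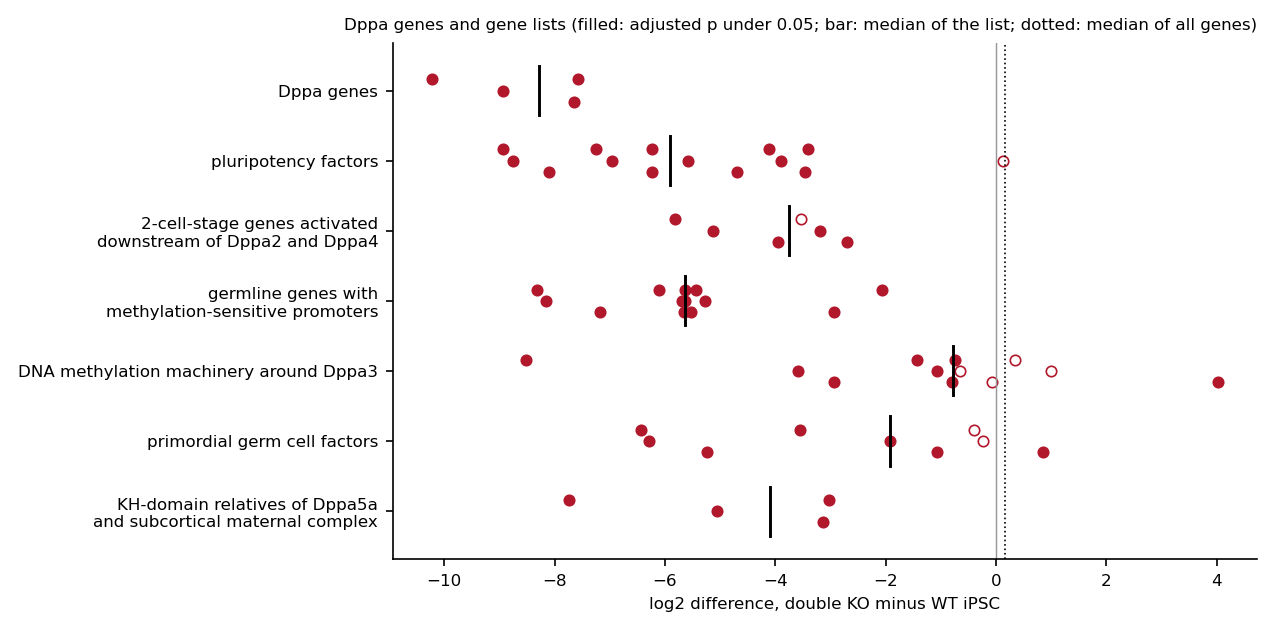
log2 difference, double KO minus WT iPSC, of the Dppa genes and of the measured genes in each list (points; filled where the adjusted p was under 0.05), with the median of each list as a bar and that of all genes as a dotted line. All 4 Dppa genes lie below the medians of all 6 lists; 1 DNA methylation gene (Tet3) and 1 germ cell factor (Ifitm3) rose.

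In the single knockouts few genes of these lists were called, against 1.57% of all genes in miR-290 KO and 0.0313% in miR-302 KO. In miR-290 KO against WT iPSC, 2 of 13 germline genes fell, Sycp3, a meiotic chromosome axis gene, by 2.41 (adjusted p = 0.0187; limma, Benjamini-Hochberg) and Rpl10l by 1.67 (adjusted p = 0.0281). Rpl10l had 17.8 ± 6.90 CPM in miR-290 KO iPSC (SD, n = 2) and 54.5 ± 9.22 CPM in WT (SD, n = 3). limma called 0 genes of the other 5 lists. At an unadjusted p under 0.05 where 16.7% of all genes passed, there were 6 of 13 germline genes, 5 of 14 pluripotency factors, 0 of 6 2-cell-stage genes, 3 of 12 methylation genes, 3 of 9 germ cell factors and 2 of 4 KH-domain and maternal genes. In miR-302 KO limma called 0 genes of any of the 6 lists, with 3, 1, 2, 1 and 2 genes of those lists and 2 of 13 germline genes at an unadjusted p under 0.05, beside 15.1% of all genes.

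Reads of 50 bases from the Dppa genes can be shared with copies elsewhere in the transcriptome, and how reads with several matches were treated is not given in the sources used here. Of all 50-base stretches in its transcript, Dppa2 shared 29.1% with other annotated transcripts, Dppa3 17.7%, Dppa4 35.9% and Dppa5a 38.6%. Among the 300 stretches nearest the 3' end, where the method places its reads, the numbers were 0 for Dppa2, 33 for Dppa3, 0 for Dppa4 and 86 for Dppa5a. Levels of Dppa3 and Dppa5a are uncertain to that extent. Dppa5b and Dppa5c, the nearest named copies of Dppa5a, were identical to it at 313 of 343 aligned bases (91.3%). Gm6083, which shared 66 stretches with Dppa5a and was in the matrix, fell by 6.79 on the log2 scale in the double KO (SE 0.45, adjusted p = 1.55e-07; limma, Benjamini-Hochberg) and had an r of 0.95 with Dppa5a over the 11 samples outside the double KO. Pigp, which shared 70 stretches, had a difference of 0.74 (adjusted p = 0.130) and an r of 0.88.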

How the data were processed

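QuantSeq 3' end libraries were made from 200 ng of total RNA and sequenced as single 50-base reads, per the labels' protocols. The submitters' processing notes name Trim Galore 0.66, STAR, Salmon 1.4.0, FastQC 0.11.9, MultiQC, limma, DESeq2 1.34.0 and the mm10 build, without giving the order of steps. The matrix deposited by the authors holds log2 values for 12778 genes, and 6 of its value columns match no sample used here. The authors' deposited tables give, for 3 comparisons, a log2 fold change, a mean normalized count (a signal), a test score and p-values.

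The log2 values were found to be log2 of CPM plus a prior (mean 2.41 reads, 0.91 to 3.52 by library), shifted by a constant per gene. Whole reads (tolerance 0.02 reads, at least 13 libraries) were recovered for 12239 genes, and 99.7% of their values came out whole. Recomputed means lay within 5% of the authors' deposited mean count for 100% of the 7510 genes shared with the double KO table. Count models were not run, because 539 genes, Dppa5a among them, did not give whole reads.

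limma 3.58.1 (R 4.3.3) was fitted to the deposited log2 values of 13 samples in 6 groups, with libraries of a colony averaged and a mean-variance trend, leaving 7 residual degrees of freedom. Benjamini-Hochberg adjustment ran over all 12778 genes in each of 10 comparisons, and calls needed an adjusted p under 0.05. No filter on low values was applied, so all 4 Dppa genes entered. The fit was tested on simulated data with far fewer and smaller changes than the double KO had. That test does not cover changes of the size seen in the Dppa genes. Where labels do not state separate cultures (WT iPSC), p-values measure only the spread between these samples. The sample titles of the ESC give a replicate number and no colony, so the same limit may hold there. Alternatives covered scaling, prior, filter, moderation, weights, libraries as samples, a replicate block and each sample left out. Descriptive values used Python 3.11.15, numpy 2.4.6 and scipy 1.17.1.

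Members and gene lists were chosen with earlier results of these data known. Named genes were the 4 members, the 5 genes most correlated with each, measured genes starting within 250 kb, and up to 4 called genes per list with the largest change between double KO and WT. Zscan4d, Uhrf1, Dnmt1, Dnmt3a, Tet2, Zfp57, Ifitm3, Dnd1, Ifitm1, Nr0b1, Sycp3, Trim43b, Fgf4, Cdx2, Eomes, Krt7, Gata3, Hand1, Gm6083 and Pigp were named after their values were seen. Of the genes most correlated with Dppa3, 1 is not reported here.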

Additional observations from a re-analysis of the deposited data

Results flagged for a closer look

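Dppa3 in miR-302 KO iPSC had 1 library far from the other 3: colony 2 library 2 at 66.8 CPM, against 4.97 to 9.16 CPM. Its gap to the nearest library was 0.932 of the group's range, above the 95% critical value of Dixon's test for 4 samples. That critical value is for independent samples, while these libraries come from 2 colonies, so the flag is only descriptive. Among 12 groups tested this was the only such value. The 12 are 3 knockout groups for each of 4 genes. The libraries are not independent and the genes share them, so the usual chance rate of about 1 in 20 groups need not hold here.

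In all 4 genes the change on losing a microRNA cluster differed between cells without the other cluster and cells that kept it. This is the test of non-additivity (limma, Benjamini-Hochberg). On the log2 scale the non-additivity was -8.90 for Dppa2, -4.78 for Dppa3, -8.11 for Dppa4 and -8.82 for Dppa5a.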

How the results depend on the processing

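Of 1232 values recomputed for 56 results, 1203 kept their direction and side of the threshold. All 4 genes were called lower in the double KO against WT iPSC under each of the 22 alternatives, with log2 differences of -9.42 to -7.44 for Dppa2, -7.83 to -5.97 for Dppa3, -7.85 to -7.19 for Dppa4 and -10.43 to -10.05 for Dppa5a. Non-additivity of Dppa3 ranged from -5.64 to -3.23. For miR-302 KO against WT iPSC the differences of Dppa3 and Dppa5a were lowest when colony 2 was left out, at -2.53 and -1.14. That fit had colony 1 alone in the group, including the library that stood apart. A prior 4 times as large could be set only for genes with recovered reads and Dppa5a (12240 genes). With it 2 of the 2 2-cell-stage, 11 of 12 germline and 6 of 7 germ cell genes still tested were called. With the lowest 25% of genes left out, 2 of the 2 of those still tested, 7 of 7 germline and 2 of 2 KH-domain and maternal genes were called. As samples were left out, calls ranged from 4 to 6 in 2-cell-stage, 11 to 13 in germline, 6 to 8 in DNA methylation and 5 to 7 in germ cell genes.

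Uncalled differences changed sign under some alternatives, and the cause was not tested. As each sample was left out, Dppa2 ranged from -0.25 to 0.05 in miR-290 KO against WT, from -0.16 to 0.14 in miR-302 KO against WT and from -0.07 to 0.02 in miR-290 KO iPSC against ESC. Dppa4 ranged from -0.10 to 0.54 in miR-290 KO against WT and also against ESC, from -0.34 to 0.29 between the single KO iPSC and from -0.04 to 0.46 between ESC. Dppa5a ranged from -0.62 to 0.38 between the single KO iPSC and from -0.75 to 0.26 in miR-302 KO iPSC against ESC, and Dppa3 from -0.35 to 1.39 and from -0.69 to 1.05 in the same 2 comparisons. With miR-302 KO colony 1 from its first library alone, chosen after seeing the data, Dppa2 was -0.12 and Dppa4 -0.11 against WT, 0.06 and 0.33 between the single KO iPSC, and Dppa5a 0.18 in iPSC against ESC.

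With a replicate block Dppa2 in miR-290 KO against WT iPSC was 0.05, and the block gave -8.82, -7.83, -7.64 and -10.32 for Dppa2, Dppa3, Dppa4 and Dppa5a in the double KO. It changed no call of the 4 genes. Deviations from the group means had a median r of -0.019 over 30 pairs of samples with the same replicate number (-0.267 to 0.184). In a group of 2 samples these deviations mirror each other, so the pairs repeat values and cannot decide whether replicate numbers pair the samples. Over all genes, 201 were called in miR-290 KO against WT, and 409 with each library as a sample, 341 with the larger prior (12240 genes tested), 126 with robust moderation, 386 with weights, 55 with the block and 339 without the library that stood apart. Leaving out samples gave 2 (without miR-290 KO colony 2) to 300 there, 15 (without that colony) to 1279 (without miR-302 KO colony 2) between the single KO iPSC, against 287, 0 to 955 (without miR-302 KO colony 2) in miR-302 KO iPSC against ESC, against 0, and 4 to 357 (without the first miR-290 KO or miR-302 KO library) between ESC, against 75. Leaving out a colony or an ESC library left a single sample in its group. Without miR-302 KO colony 2, that sample takes in the library that stood apart. Depth limits Dppa2 and Dppa3 in the double KO, at 8 and 5 reads.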
